A study of Homo sapiens with 8 samples.

Results

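Untreated cells of an epithelial line and of a myofibroblast line of the human prostate were set side by side to describe how their expression differed at baseline. The comparison used 4 of the 8 arrays of the series. These were the 2 arrays of BPH1 cells and the 2 arrays of WPMY-1 cells treated with vehicle, for 48 h by the labels. The other 4 arrays, on which both lines had received Pao extract, a plant bark extract, at 250 μg/ml for 48 h by the labels, served as a second set. BPH1 is an immortalized line of benign prostate epithelium that was kept in RPMI1640, and WPMY-1 is an immortalized line of prostate stroma with myofibroblast features that was kept in DMEM. Both lines carry the SV40 large T antigen, and both media held serum. Each cell type was thus represented by 1 line from 1 donor in its own medium, so that cell type, line, donor and medium cannot be told apart. Whether the paired arrays of a group stem from different cultures is not given, so all p-values reflect array-to-array spread that may be technical.

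In the prostate, the epithelium lines glands whose basal layer rests on a basement membrane, and the stroma of smooth muscle cells and fibroblasts lies beneath it. Epithelial cells hold together through E-cadherin junctions, tight junctions and desmosomes, and anchor keratin filaments to the membrane below through hemidesmosomes. Stromal cells are migratory, build the collagen-rich matrix and send growth factors such as HGF and FGFs to receptors on the epithelium. Myofibroblasts are activated stromal cells with contractile filaments.

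Of 22465 genes with a named probe set, 672 (2.99%) were higher and 572 (2.55%) were lower in BPH1 cells than in WPMY-1 cells. A gene was called when limma gave an adjusted p below 0.05 and the means of the log2 values differed by at least 1, which is 2-fold. Differences are given throughout as BPH1 minus WPMY-1 on the log2 scale, and their median over all genes was 0.02. Values come from RNA of whole cultures, so fewer expressing cells and less RNA per cell cannot be told apart. At 4-fold and above, 170 genes (0.757%) were higher and 166 (0.739%) were lower. The epithelial serpin *SERPINB5*, also called maspin, had the largest positive difference, 6.33, and *CCL2*, the chemokine that attracts monocytes, had the largest negative one, -6.76. Between arrays of the same group the values of all genes correlated at 0.996 to 0.997, and between the lines at 0.957 to 0.962. No detection calls were used, so the 90th percentile of 364 olfactory receptor genes, a log2 level of 4.06, was read as the background level. A difference against a mean below that level is a lower bound, which applied to 121 of the higher genes and 120 of the lower ones. Leukocyte markers, which neither line should express, had medians of 4.86 to 4.99 on the 4 arrays, so that background may be higher for single probe sets.

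**Figure D1:**
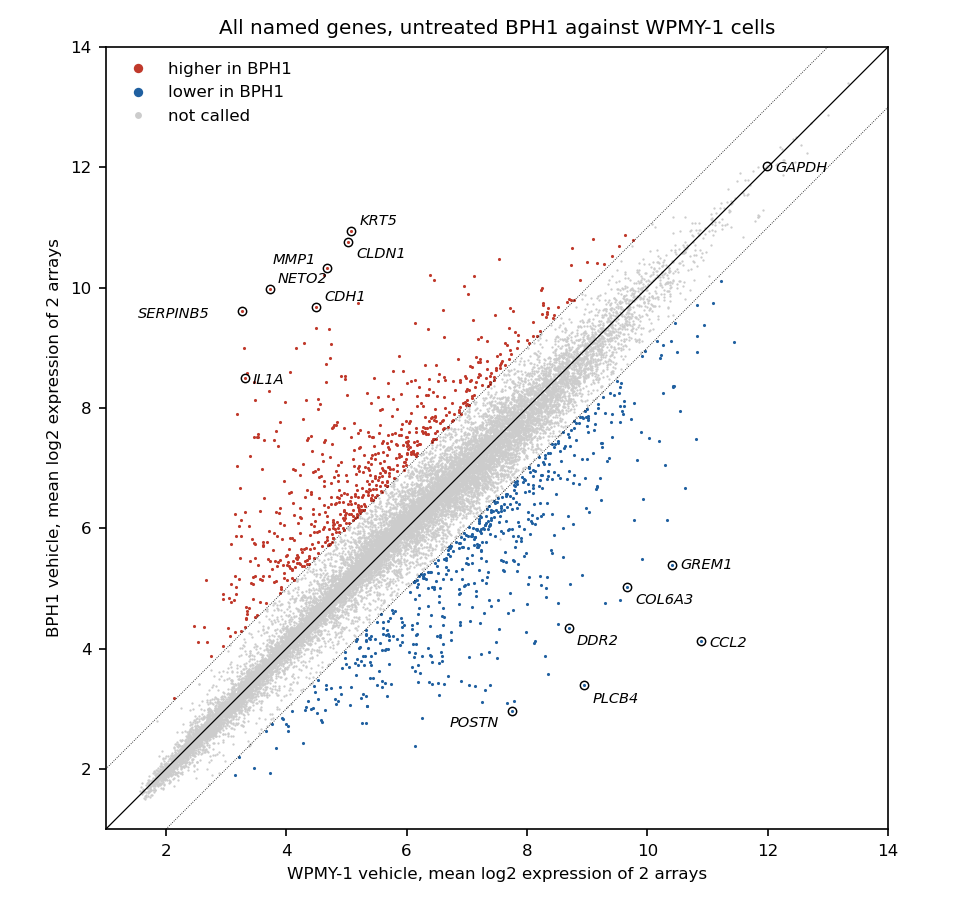
Mean log2 expression of the 2 BPH1 vehicle arrays (vertical axis) against the mean of the 2 WPMY-1 vehicle arrays (horizontal axis), with 1 point per gene. The solid line marks equal values and the dotted lines a 2-fold difference. The 672 genes higher in BPH1 lie above the band, the 572 lower genes below it, and *GAPDH* lies on the line.

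The 12 largest positive differences belonged to genes of cell adhesion, keratin filaments, proteases and signalling. *SERPINB5* read 9.67 and 9.54 on the BPH1 arrays, against 3.25 and 3.29 on the WPMY-1 arrays. With WPMY-1 at the background, BPH1 was at least 80.6-fold higher (SE 0.07 on the log2 scale, limma adjusted p = 3.5e-09). *NETO2*, an accessory subunit of kainate receptors, stood at 10.11 and 9.83 on the BPH1 arrays, against 3.82 and 3.62 on the WPMY-1 arrays. The keratin of basal cells, *KRT5*, was measured at 10.92 and 10.97 on the BPH1 arrays, against 4.96 and 5.19 on the WPMY-1 arrays. At these 3 genes the arrays of 1 line lay close together and the lines far apart. Next by size were *CLDN1* (5.73), which seals tight junctions, *FAM83B* (5.71), *MMP1* (5.65), which cuts fibrillar collagen, and the adhesion gene *MPZL2* (5.58). The desmosomal cadherins *DSC3* (5.23) and *DSG3* (4.96), the cytokine *IL1A* (5.19), E-cadherin *CDH1* (5.19) and *EPCAM* (4.84) completed the set. Adjusted p-values of these 12 genes lay between 3.5e-09 and 1.1e-07, all from limma.

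The 12 largest negative differences held a chemokine, secreted regulators, matrix genes and genes of calcium and G protein signalling. *CCL2* read 4.13 and 4.13 on the BPH1 arrays, against 11.03 and 10.74 on the WPMY-1 arrays, a difference of -6.76 with BPH1 just above the background level (SE 0.10 on the log2 scale, limma adjusted p = 5.1e-09). *PLCB4*, a phospholipase C that acts below G protein-coupled receptors, was at 3.44 and 3.37 on the BPH1 arrays, against 9.36 and 8.55 on the WPMY-1 arrays. *GREM1*, a secreted antagonist of BMPs, was at 5.43 and 5.35 on the BPH1 arrays, against 10.35 and 10.48 on the WPMY-1 arrays. At these 3 genes the arrays of the lines did not overlap, which held for 62.9% of all genes. *POSTN* (-4.78), *CCDC80* (-4.73), *COL6A3* (-4.64) and *COL1A2* (-4.42) encode matrix proteins. *RGS4* (-4.76) dampens G protein signalling, *CACNA2D1* (-4.58) is a calcium channel subunit, and *STC1* (-4.54) is a secreted glycoprotein hormone. *TDRD1* (-4.66), known from germ cells, and *LRRC17* (-4.42) were the remaining members, and the limma adjusted p-values of the 12 lay between 5.1e-09 and 5.1e-06.

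The labels were checked against markers of both cell types. Of 14 epithelial markers 13 were higher in BPH1 cells, and the median marker level was 8.59 and 8.69 on the BPH1 arrays, against 5.50 and 5.71 on the WPMY-1 arrays. *CDH1* read 9.70 and 9.66 on the BPH1 arrays, against 4.54 and 4.44 on the WPMY-1 arrays, and *EPCAM* 9.38 and 9.29 on the BPH1 arrays, against 4.48 and 4.52 on the WPMY-1 arrays. The simple epithelial keratins *KRT8* (3.09) and *KRT18* (1.43) were higher too, although *KRT18* was abundant in both lines with means of 10.43 in BPH1 and 9.001 in WPMY-1 cells. *CLDN4* was the exception, at 6.003 in BPH1 and 5.92 in WPMY-1 cells. Of 18 stromal markers 14 were lower in BPH1 cells, with array medians of 5.50 and 5.63 in BPH1, against 7.27 and 7.14 in WPMY-1. *FAP*, the fibroblast activation protein, read 3.004 and 3.22 on the BPH1 arrays, against 7.43 and 7.09 on the WPMY-1 arrays. *THY1* (-2.76), *PDGFRA* (-2.46), *PRRX1* (-2.35), *LUM* (-1.85) and *DCN* (-1.39) were lower as well. Even in WPMY-1 cells, however, *LUM* and *DCN* averaged only 4.27 and 4.74, close to the background level. *COL5A1* (-0.90), *TWIST1* (-0.84) and *ACTA2* (-0.18) passed no call, and *CDH11*, a cadherin known from mesenchyme, was higher in BPH1 cells (1.09). The call of *CDH11* did not hold without BPH1 array 1 (0.95) or WPMY-1 array 2 (0.93), and a second probe set of *DCN* gave only -0.22.

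**Figure D2:**
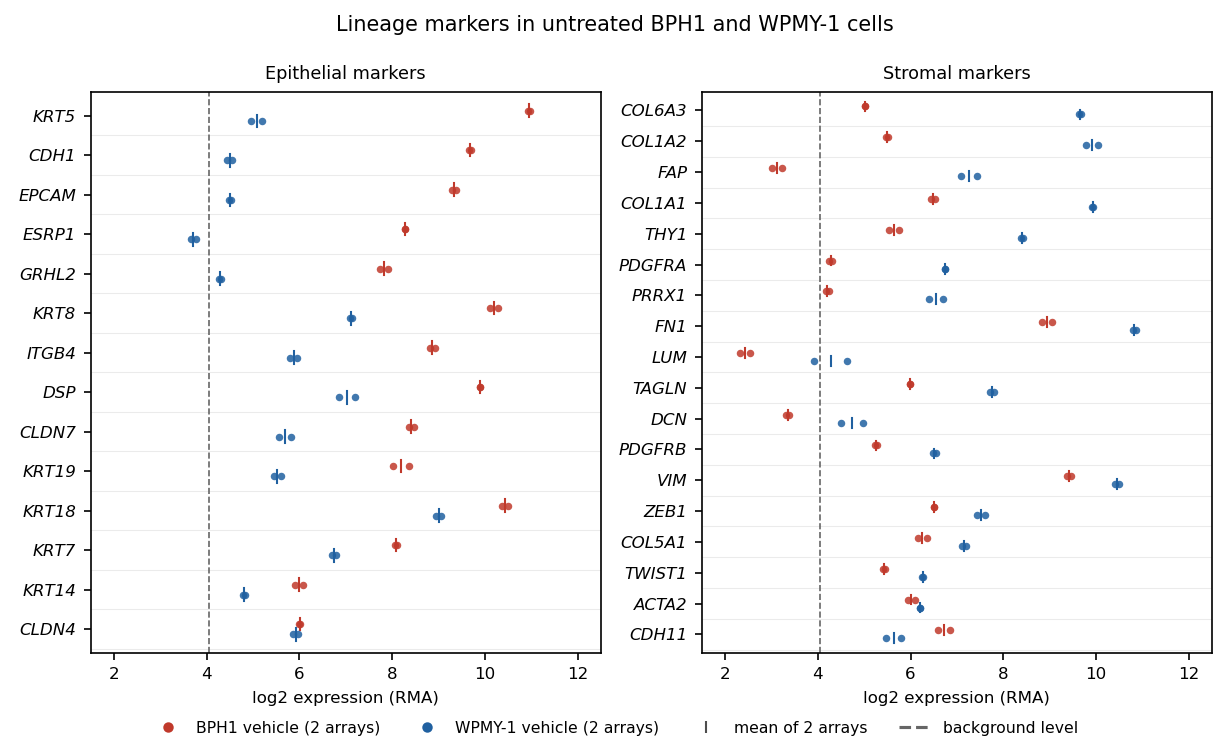
Log2 expression of epithelial markers (left) and stromal markers (right) on each vehicle array, with BPH1 in red above WPMY-1 in blue. Points are single arrays, short bars are the means of 2 arrays and the dashed line is the background level of 4.06. All 14 epithelial markers except *CLDN4* are separated to the right in BPH1, while *ACTA2* is at like levels in both lines and *CDH11* lies to the right in BPH1.

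BPH1 cells were not devoid of mesenchymal transcripts. *VIM*, the intermediate filament of mesenchyme, averaged 9.41 in BPH1 and 10.46 in WPMY-1 cells, and *FN1* 8.94 in BPH1 and 10.82 in WPMY-1 cells. N-cadherin, *CDH2*, had means of 7.45 in BPH1 and 10.19 in WPMY-1 cells. All 3 were lower in BPH1 cells, with differences of -1.05, -1.88 and -2.74, and lay well above the background level in both lines. None of 15 endothelial and 10 neuroendocrine or neural markers was called, and of 25 leukocyte markers only *LAPTM5* was (1.34). Of these, 5 endothelial and 7 leukocyte markers had means below the background level in both lines. Of 25 proliferation genes 1 was called, the replication helicase gene *MCM6* (1.03), and *MKI67* averaged 10.94 in BPH1 and 10.72 in WPMY-1 cells. None of 11 broadly expressed genes, *GAPDH* (0.03) and *ACTB* (-0.09) among them, was called. Over all genes 5.54% were called in either direction, so the low counts of these short lists are near that share and do not set them apart.

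The list of transcription factors that keep up epithelial identity held 24 measured genes, including the splicing regulators *ESRP1* and *ESRP2*. Of these 24 genes 11 were higher in BPH1 cells (45.8%, against 2.99% of all genes), 0 were lower and 13 were not called. Their median difference was 0.73, against 0.02 for all genes. *ESRP1*, which regulates the splicing of epithelial isoforms, read 8.28 and 8.27 on the BPH1 arrays, against 3.65 and 3.76 on the WPMY-1 arrays. *EHF*, an ETS factor of glandular and surface epithelium, was at 8.06 and 8.21 on the BPH1 arrays, against 4.34 and 4.31 on the WPMY-1 arrays. *GRHL2*, which maintains E-cadherin and claudin expression, was at 7.90 and 7.74 on the BPH1 arrays, against 4.26 and 4.31 on the WPMY-1 arrays. In all 3 the WPMY-1 arrays lay near or just above the background level. *KLF5* (2.55), *ESRP2* (2.08), *FOXA1* (1.79), *SOX2* (1.79), *TFAP2C* (1.76), *FOXQ1* (1.63), *PAX9* (1.32) and *GRHL1* (1.13) were the others. *ELF3* (0.69) and *TFAP2A* (0.77) were not called.

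Mesenchymal transcription factors were lower in BPH1 cells in 12 of 51 cases (23.5%) and higher in 2 (3.92%), with a median difference of -0.20. *BNC2* read 4.15 and 4.15 on the BPH1 arrays, against 6.86 and 6.61 on the WPMY-1 arrays, and *PRRX1*, which marks limb and fibroblast mesenchyme, 4.17 and 4.24 on the BPH1 arrays, against 6.70 and 6.39 on the WPMY-1 arrays. *TCF4* (-2.29), *TBX3* (-1.79), *MEIS1* (-1.53), *TWIST2* (-1.43), *EBF3* (-1.32) and *NR2F1* (-1.19) followed. *ZEB1*, the repressor of E-cadherin, was measured at 6.50 and 6.50 on the BPH1 arrays, against 7.61 and 7.43 on the WPMY-1 arrays, a difference of -1.02 that fell just short of the call, at -0.93, without WPMY-1 array 1. *SNAI2* (-0.55) passed no call. Against the direction of the list, *FOXF2*, a forkhead factor known from gut mesenchyme, was higher in BPH1 cells at 6.68 and 6.54 on the BPH1 arrays, against 4.46 and 4.35 on the WPMY-1 arrays, as was *FOXL1* (1.06). Among 25 HOX genes, *HOXD10* (2.46) and *HOXD11* (1.28) were higher and *HOXC6* (-1.12) was lower. The shares were 8% and 4%, against 2.99% and 2.55% of all genes.

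Secretory genes of the luminal prostate were low and did not separate the lines. *KLK3*, which encodes prostate-specific antigen, averaged 5.32 in BPH1 and 5.30 in WPMY-1 cells. *TMPRSS2* averaged 4.69 in BPH1 and 4.46 in WPMY-1 cells, and *MSMB* 2.83 in BPH1 and 2.87 in WPMY-1 cells. The means of *MSMB* lay below the background level, and those of *KLK3* and *TMPRSS2* lay close to the medians of the leukocyte markers. At such levels a difference may not be readable, so equal expression is not shown. *HOXB13* was not called (0.54). The 6 of 19 members of the prostate list that were higher (31.6%) were the 4 keratins *KRT5*, *KRT8*, *KRT14* and *KRT18*, with *FOXA1* and *SOX9* (2.12). In the nuclear receptor list *RARB*, a retinoic acid receptor, was lower (-2.50), as was the clock gene *NR1D2* (-1.51), and *PPARG* was higher (1.22). Of its 31 members 1 was thus higher (3.23%) and 2 were lower (6.45%), against 2.99% and 2.55% of all genes.

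MicroRNA genes were read through their precursor or host transcripts, so their values are not levels of mature microRNAs. Of 23 listed, *MIR222* was lower (-1.10) and *MIR146A* higher (1.06) in BPH1 cells, 4.35% each way against 2.55% and 2.99% of all genes. Without WPMY-1 array 1 neither was called, at -0.79 and 0.97, and *MIR222* was not called without BPH1 array 2 either (-0.90). *MIR222* read 5.37 and 4.96 on the BPH1 arrays, against 6.58 and 5.96 on the WPMY-1 arrays, and its neighbour *MIR221*, which was not called, 6.46 and 5.87 on the BPH1 arrays, against 7.25 and 6.71 on the WPMY-1 arrays. On the Pao extract arrays the difference was 0.37 for *MIR222* and 1.41 for *MIR146A*, and only *MIR146A* was called there. Members of the miR-200 family, known to silence *ZEB1* and to be high in epithelium, passed no call. *MIR200C* averaged 4.30 in BPH1 and 3.81 in WPMY-1 cells, and *MIR141*, from the same cluster, 3.41 in BPH1 and 2.55 in WPMY-1 cells, around the background level. The mature sequences of these genes, from RefSeq on GRCh38.p14 with the seed (bases 2 to 8) in capitals, show that miR-222 shares its seed with miR-221, while miR-200c and miR-141 differ within theirs:
hsa-miR-222-3p: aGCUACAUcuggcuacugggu
hsa-miR-221-3p: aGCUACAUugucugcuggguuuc
hsa-miR-146a-5p: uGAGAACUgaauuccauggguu
hsa-miR-200c-3p: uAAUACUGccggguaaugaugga
hsa-miR-141-3p: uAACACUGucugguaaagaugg

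Keratins, the intermediate filaments of epithelium, were higher in 7 of 48 cases (14.6%, against 2.99% of all genes) and lower in 0. Beside *KRT5* and *KRT8*, *KRT19* read 8.01 and 8.35 on the BPH1 arrays, against 5.45 and 5.59 on the WPMY-1 arrays and *KRT6C* 8.47 and 8.95 on the BPH1 arrays, against 6.30 and 6.30 on the WPMY-1 arrays. *KRT7* (1.34) and *KRT14* (1.19), the partner of *KRT5* in basal cells, had smaller differences, and *KRT14* averaged only 5.99 in BPH1 cells. Hair and other specialised keratins made up most of the rest. Near-identical keratin genes may share probes, so *KRT6C* is uncertain, and *KRT6A*, *KRT6B* and *KRT17* were not analysed here.

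Promoters of the epithelial markers were searched for the E-box CAGGTG, or CACCTG on the other strand, which ZEB and SNAI repressors bind. It was present in 17.5% of 35116 RefSeq promoters of 250 bases upstream of the start, and 5635 of 27305 genes had it in at least 1 of their promoters. Of the 13 markers higher in BPH1 cells 4 had a promoter in the table, and 3 of these genes (*KRT5*, *DSP* and *CLDN7*) held the motif, in 3 of 5 promoters. Of the 14 markers that were lower, 7 had a promoter and 1 held the motif, in 2 of 14 promoters. The counts are small and a match is a description, not a binding site. The promoters of *KRT5* with 1 match, *DSP* with 2 and *KRT8* with none are shown to compare, on GRCh38.p14 in the direction of the gene, with the motif in capitals:
KRT5 promoter, chr12:52520395-52520644, minus strand: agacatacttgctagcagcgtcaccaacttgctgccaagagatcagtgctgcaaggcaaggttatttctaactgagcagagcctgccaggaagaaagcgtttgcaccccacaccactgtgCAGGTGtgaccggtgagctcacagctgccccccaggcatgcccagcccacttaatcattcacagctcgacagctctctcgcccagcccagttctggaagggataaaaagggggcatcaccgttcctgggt
DSP promoter, chr6:7541421-7541670, plus strand: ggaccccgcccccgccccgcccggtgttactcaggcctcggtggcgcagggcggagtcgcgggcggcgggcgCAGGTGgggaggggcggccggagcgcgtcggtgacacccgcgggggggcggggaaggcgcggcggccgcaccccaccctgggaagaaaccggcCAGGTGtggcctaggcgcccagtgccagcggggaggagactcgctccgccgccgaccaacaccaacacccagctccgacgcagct
KRT8 promoter, chr12:52926470-52926719, minus strand: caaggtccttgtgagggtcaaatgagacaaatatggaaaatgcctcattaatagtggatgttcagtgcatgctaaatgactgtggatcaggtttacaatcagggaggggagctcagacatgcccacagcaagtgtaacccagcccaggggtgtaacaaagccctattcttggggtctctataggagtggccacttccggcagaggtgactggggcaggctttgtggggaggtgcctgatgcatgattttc

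Of the gene lists used, that of junctions between epithelial cells had the most members on the BPH1 side. Of 47 genes of junctions and polarity 24 were higher (51.1%, against 2.99% of all genes) and 0 were lower, with a median difference of 1.04. *CLDN1* read 10.73 and 10.79 on the BPH1 arrays, against 4.94 and 5.12 on the WPMY-1 arrays. P-cadherin, *CDH3*, the cadherin of basal epithelium, was at 9.68 and 9.79 on the BPH1 arrays, against 4.98 and 5.39 on the WPMY-1 arrays. *MARVELD2*, or tricellulin, was at 7.12 and 6.85 on the BPH1 arrays, against 4.18 and 4.03 on the WPMY-1 arrays. The 3 genes cover tight junctions, adherens junctions and tricellular contacts. *PATJ* (3.45), *CLDN7* (2.73), *CXADR* (2.51), *RAB25* (2.31), *NECTIN1* (2.22) and *OCLN* (1.04) were higher too, as were the membrane protease *ST14* (1.36) and its inhibitors *SPINT1* (1.68) and *SPINT2* (2.40). *TJP1*, the scaffold ZO-1, was abundant in both lines, with means of 9.16 in BPH1 and 8.68 in WPMY-1 cells, and was not called.

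Desmosome and cornified layer genes were higher in 13 of 38 cases (34.2%, against 2.99% of all genes) and lower in 0 (median 0.59). *DSC3* read 8.63 and 8.52 on the BPH1 arrays, against 3.35 and 3.35 on the WPMY-1 arrays, and *DSG3* 8.36 and 8.48 on the BPH1 arrays, against 3.37 and 3.55 on the WPMY-1 arrays. Both cadherins were at the background in WPMY-1 cells. The cadherins *DSC2* (3.67) and *DSG2* (3.66) and the plaque proteins *DSP* (2.87), *PKP2* (2.32), *JUP* (2.32) and *PKP1* (2.15) were higher as well. Of genes of squamous epithelium, *SFN* (3.81), the cystatin *CSTA* (2.96) and the antiprotease *SLPI* (3.62) were higher, whereas *TGM1* (0.13), which crosslinks the envelope of squamous cells, was not called.

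Receptors for the matrix were called in both directions. Of 7 measured hemidesmosome genes 4 were higher (57.1%, against 2.99% of all genes) and 0 lower. Of 26 integrin genes 5 were higher (19.2%) and 4 lower (15.4%, against 2.55%) in BPH1 cells. *ITGA6* read 10.05 and 9.99 on the BPH1 arrays, against 6.84 and 7.06 on the WPMY-1 arrays, and *ITGB4* 8.81 and 8.91 on the BPH1 arrays, against 5.80 and 5.96 on the WPMY-1 arrays. These form the laminin receptor of hemidesmosomes. *ITGB6* (2.06), which is typical of epithelium, *ITGA3* (1.94) and *ITGA2* (1.22) were higher too. On the other side, *ITGA4* was at 3.90 and 3.83 on the BPH1 arrays, against 7.15 and 6.93 on the WPMY-1 arrays, and the fibronectin receptor chain *ITGA5* at 7.64 and 7.87 on the BPH1 arrays, against 9.40 and 9.40 on the WPMY-1 arrays. *ITGA11* (-1.40) and *ITGA1* (-1.14) were lower too, and the shared chains *ITGB1* (-0.39) and *ITGAV* (0.01) were not called. *FERMT1*, the kindlin of epithelium that activates integrins, was higher (2.38).

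Of 45 genes of mesenchymal and neural adhesion 12 were lower (26.7%) and 3 higher (6.67%) in BPH1 cells, against 2.55% and 2.99% of all genes. The protocadherins *PCDH10* (-3.14) and *PCDH18* (-2.80), *VCAM1* (-2.45), which binds the integrin of *ITGA4*, the guidance cue *SLIT2* (-1.91), connexin 43 (*GJA1*, -1.76) and *JAM3* (-1.58) were lower. *CDH8* (2.62), *FLRT2* (2.29) and *CDH11* went the other way. *ICAM1* averaged 8.23 in BPH1 and 8.13 in WPMY-1 cells, with no call.

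**Figure D3:**
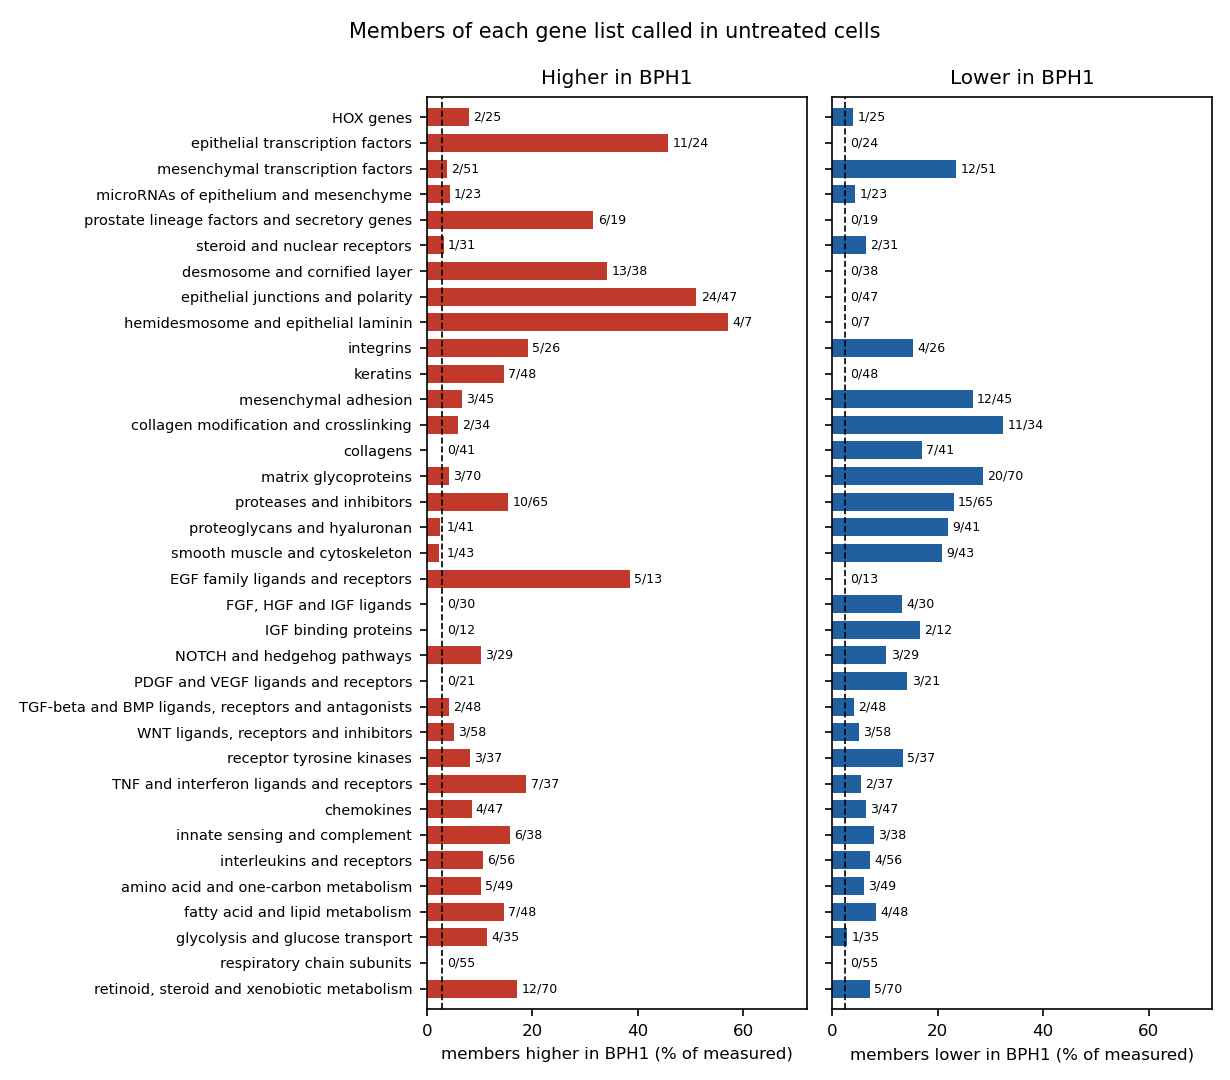
Share of the measured members of each gene list that were higher in BPH1 (left, red) or lower in BPH1 (right, blue) on the vehicle arrays, in percent, with counts beside the bars. The dashed lines give the share over all genes, 2.99% higher and 2.55% lower. Epithelial junctions, hemidesmosome and transcription factor lists reach furthest on the left and collagen crosslinking, matrix glycoprotein and mesenchymal adhesion lists on the right.

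Most called matrix genes lay on the WPMY-1 side. None of 41 collagen genes was higher in BPH1 cells and 7 were lower (17.1%, against 2.55% of all genes). The lower ones were *COL6A3*, *COL1A2*, *COL1A1*, *COL5A2*, *COL8A1*, *COL12A1* and *COL6A1*. *COL1A1*, which with *COL1A2* forms type I collagen, read 6.44 and 6.54 on the BPH1 arrays, against 9.93 and 9.92 on the WPMY-1 arrays. *COL1A2* was at 5.48 and 5.51 on the BPH1 arrays, against 10.04 and 9.78 on the WPMY-1 arrays, and *COL6A3*, a chain of the microfibrillar type VI collagen, at 5.02 and 5.02 on the BPH1 arrays, against 9.69 and 9.63 on the WPMY-1 arrays. The 3 transcripts were 10.8-, 21.4- and 24.9-fold lower in BPH1 cells. *COL5A2* (-2.55), *COL8A1* (-1.95), *COL12A1* (-1.52) and *COL6A1* (-1.10) had smaller differences. *COL4A1* (-0.30), a collagen of basement membranes, was not called. *COL3A1* was not analysed here.

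Of 34 genes that mature and crosslink collagen 11 were lower (32.4%) and 2 higher (5.88%), against 2.55% and 2.99% of all genes. *LOX*, lysyl oxidase, read 6.14 and 6.15 on the BPH1 arrays, against 10.43 and 10.23 on the WPMY-1 arrays, and *LOXL1* 6.72 and 6.64 on the BPH1 arrays, against 9.10 and 9.24 on the WPMY-1 arrays. Lower by less were *LOXL2* (-1.22), *LOXL3* (-1.02), the collagen chaperone *SERPINH1* (-1.30), the procollagen protease *ADAMTS2* (-1.29) and the prolyl hydroxylase *P3H1* (-1.29). *PLOD1* (-0.53) and *PLOD2* (-0.82), which hydroxylate collagen lysines, were not called. Transglutaminase 2, *TGM2*, which crosslinks matrix proteins by another reaction, was higher in BPH1 cells at 9.43 and 9.20 on the BPH1 arrays, against 6.48 and 6.24 on the WPMY-1 arrays, as was *P3H2* (1.51).

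Matrix glycoproteins were lower in 20 of 70 cases (28.6%) and higher in 3 (4.29%), with a median of -0.23. The shares of all genes were 2.55% and 2.99%. Periostin, *POSTN*, read 3.05 and 2.88 on the BPH1 arrays, against 8.11 and 7.38 on the WPMY-1 arrays. *SPARC*, a collagen-binding matricellular protein, was at 6.68 and 6.67 on the BPH1 arrays, against 10.66 and 10.59 on the WPMY-1 arrays. *FBN1*, which builds microfibrils, was at 5.21 and 5.23 on the BPH1 arrays, against 8.94 and 8.89 on the WPMY-1 arrays. All 3 separated the lines by more than any difference between arrays of 1 line. *ABI3BP* (-4.11), *EDIL3* (-2.95), *EFEMP2* (-2.61), *TGFBI* (-2.34), *CCN2* (-2.22) and *TNC* (-2.07) were lower too. *TGFBI* and *TNC* remained abundant in BPH1 cells, with means of 9.10 and 8.36, against 11.44 and 10.42 in WPMY-1 cells. The 3 that were higher were the basement membrane gene *NID2* (1.43), *EFEMP1* (1.37) and thrombospondin *THBS1* (1.11), which was not called without BPH1 array 1 (0.99) or WPMY-1 array 2 (0.86). Among 41 genes of proteoglycans and hyaluronan 9 were lower (22%) and 1, *GPC4* (1.06), was higher (2.44%). Versican, *VCAN*, read 4.10 and 4.09 on the BPH1 arrays, against 8.33 and 7.90 on the WPMY-1 arrays, and biglycan, *BGN*, 5.86 and 5.91 on the BPH1 arrays, against 8.52 and 8.37 on the WPMY-1 arrays. The hyaluronan receptor *CD44* (-0.56) was not called.

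Proteases and their inhibitors went both ways, with 10 of 65 higher (15.4%) and 15 lower (23.1%), against 2.99% and 2.55% of all genes. Genes on the BPH1 side included clade B serpins, which act inside and at the surface of epithelial cells. *SERPINB3* read 7.75 and 8.51 on the BPH1 arrays, against 3.42 and 3.55 on the WPMY-1 arrays, and *SERPINB4* 7.10 and 7.92 on the BPH1 arrays, against 3.42 and 3.52 on the WPMY-1 arrays, although these neighbours are near-identical and may share probes. The tissue factor gene *F3*, the trigger of coagulation, was at 10.63 and 10.33 on the BPH1 arrays, against 7.63 and 7.45 on the WPMY-1 arrays. Metalloproteinases lay on both sides. *MMP1* read 10.31 and 10.35 on the BPH1 arrays, against 4.48 and 4.87 on the WPMY-1 arrays, *MMP13* 7.97 and 7.16 on the BPH1 arrays, against 3.51 and 3.56 on the WPMY-1 arrays, and the epithelial *MMP7* 6.93 and 7.01 on the BPH1 arrays, against 4.20 and 4.07 on the WPMY-1 arrays. Stromelysin *MMP3*, a neighbour of *MMP1* on chromosome 11, showed the opposite at 4.36 and 4.19 on the BPH1 arrays, against 8.06 and 7.90 on the WPMY-1 arrays. *MMP2* was lower as well, at 6.84 and 7.25 on the BPH1 arrays, against 10.26 and 10.34 on the WPMY-1 arrays, and its activator *MMP14* was not called (0.59). The cell surface peptidases *DPP4* (-3.37), *ANPEP* (-3.30) and *MME* (-3.22), the metalloproteinase *ADAM12* (-3.65), *HTRA1* (-2.49), *PLAT* (-2.12) and *CTSK* (-1.57) were lower. Urokinase *PLAU* (0.54) was not called.

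The contractile genes that define myofibroblasts were only partly on the WPMY-1 side. Of 43 genes of smooth muscle and the cytoskeleton 9 were lower in BPH1 cells (20.9%) and 1 was higher (2.33%). The shares of all genes were 2.55% and 2.99%. The myosin light chain *MYL9* read 7.35 and 7.63 on the BPH1 arrays, against 10.83 and 10.79 on the WPMY-1 arrays, and tropomyosin *TPM2* 7.19 and 7.14 on the BPH1 arrays, against 9.35 and 9.39 on the WPMY-1 arrays. *TAGLN* (-1.76), *CALD1* (-1.60), *PALLD* (-1.86), *NEXN* (-2.22) and *TGFB1I1* (-1.85) were lower too. Smooth muscle actin, *ACTA2*, the defining marker, was at 5.94 and 6.09 on the BPH1 arrays, against 6.196 and 6.196 on the WPMY-1 arrays (limma adjusted p = 0.26). The smooth muscle genes *DES* (0.02), *MYH11* (0.01), *ACTG2* (-0.28) and *CNN1* (-0.80) were not called either, and *DES* and *MYH11* averaged 4.78 and 5.32 in WPMY-1 cells. The contractile genes thus bore out the label of myofibroblast only in part, with *ACTA2* not called at a 1.13-fold difference. The unconventional myosin *MYO1D* was the gene on the BPH1 side (3.79).

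**Figure D4:**
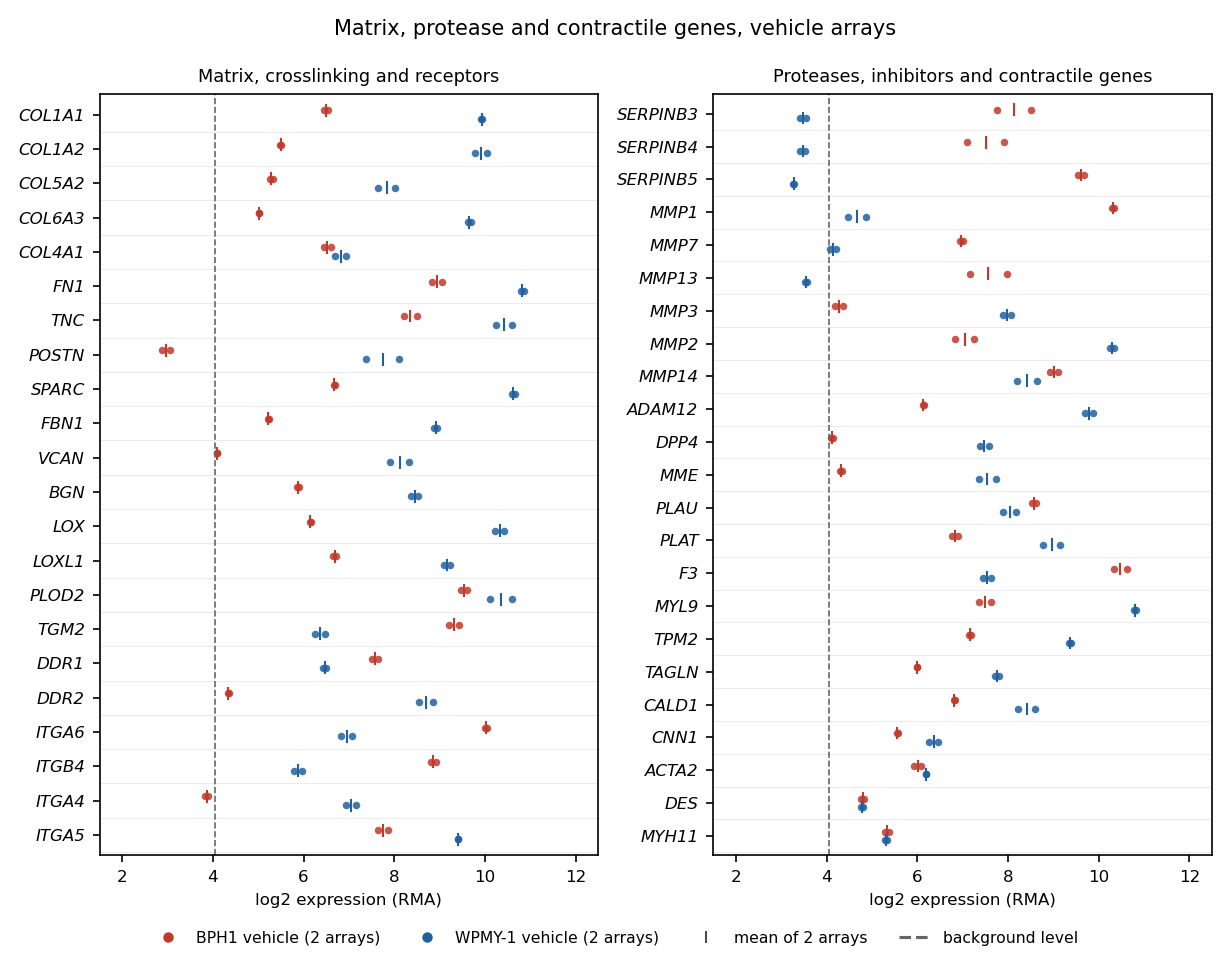
Log2 expression on each vehicle array for genes of the matrix, its crosslinking and its receptors (left) and for proteases, inhibitors and contractile genes (right), with BPH1 in red above WPMY-1 in blue. Points are single arrays, short bars are means of 2 arrays and the dashed line is the background level. The collagens and *LOX* lie to the left in BPH1, *MMP1* and *MMP3* lie on opposite sides, and *ACTA2*, *DES* and *MYH11* do not separate.

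Called growth factor genes included ligands of the EGF family on the BPH1 side and FGF, HGF and neurotrophin genes on the WPMY-1 side. Of 13 EGF family genes 5 were higher (38.5%, against 2.99% of all genes) and 0 lower. Epiregulin, *EREG*, read 8.42 and 8.77 on the BPH1 arrays, against 4.003 and 4.12 on the WPMY-1 arrays, and *TGFA* 7.39 and 7.31 on the BPH1 arrays, against 5.66 and 5.72 on the WPMY-1 arrays. *NRG1*, a ligand of ERBB3 and ERBB4, was at 9.32 and 8.96 on the BPH1 arrays, against 7.23 and 7.14 on the WPMY-1 arrays. *EPGN* (1.72) and the receptor *ERBB3* (1.12) were higher as well. The receptor *EGFR* was abundant in both, with means of 9.34 in BPH1 and 9.07 in WPMY-1 cells and no call. Of 30 genes of FGF, HGF, IGF and related ligands 0 were higher and 4 lower (13.3%, against 2.55% of all genes). *FGF2* read 7.68 and 7.53 on the BPH1 arrays, against 10.03 and 9.76 on the WPMY-1 arrays, and *HGF*, the stromal ligand of MET, 3.01 and 3.14 on the BPH1 arrays, against 4.67 and 4.98 on the WPMY-1 arrays. *BDNF* (-2.09) and *FGF5* (-1.27) were lower too. *HGF* was low in WPMY-1 cells and at the background in BPH1 cells, whereas its receptor *MET* averaged 9.37 in BPH1 and 9.05 in WPMY-1 cells. *FGF7*, a stromal ligand of the prostate, averaged 2.28 in BPH1 and 2.40 in WPMY-1 cells, below the background level.

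Receptor tyrosine kinases and ephrins had 3 of 37 members higher and 5 lower. The pair of collagen receptors lay on opposite sides. *DDR2*, which binds fibrillar collagen, read 4.32 and 4.35 on the BPH1 arrays, against 8.85 and 8.54 on the WPMY-1 arrays, and *DDR1*, known from epithelium, 7.51 and 7.65 on the BPH1 arrays, against 6.43 and 6.49 on the WPMY-1 arrays. The lower of the *DDR1* probe sets gave a difference of only 0.65. *AXL* was at 8.32 and 8.17 on the BPH1 arrays, against 10.21 and 10.31 on the WPMY-1 arrays, and its ligand *GAS6* was not called (-0.88). The ephrin receptors *EPHA7* (-2.52) and *EPHA4* (-1.46) and *KIT* (-1.33) were lower, and the ligands *EFNA1* (1.68) and *EFNB1* (1.31) higher. Of 21 PDGF and VEGF genes 3 were lower (14.3%, against 2.55% of all genes), all of them receptors. *PDGFRA* read 4.31 and 4.25 on the BPH1 arrays, against 6.75 and 6.74 on the WPMY-1 arrays, and *PDGFRB* 5.23 and 5.29 on the BPH1 arrays, against 6.55 and 6.48 on the WPMY-1 arrays. The co-receptor *NRP1* (-2.45) was the third. The ligands *PDGFC* (-0.71) and *VEGFA* (0.24) were not called.

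In the TGF-beta and BMP pathways 2 of 48 genes were higher and 2 lower, a share of 4.17% each that is near those of all genes. The differences themselves were large for *GREM1* and for *BMP5*, which read 5.15 and 5.12 on the BPH1 arrays, against 2.60 and 2.73 on the WPMY-1 arrays. The activin subunit *INHBA* (-1.18) was lower and the inhibitor *ID4* (2.03) higher. *TGFB1* (-0.09), *TGFBR1* (-0.09) and *BMP4* (0.31) were not called. In the WNT pathway *WNT5A*, a ligand of non-canonical signalling, read 4.82 and 4.69 on the BPH1 arrays, against 8.84 and 8.18 on the WPMY-1 arrays. Its receptor *ROR1* (-1.17) and the secreted *DKK3* (-1.17) were lower too, and the receptors *FZD3* (1.81) and *FZD6* (1.01) and *KREMEN1* (1.09) higher. The WNT list thus had 3 of 58 called in each direction, 5.17% each, against 2.99% higher and 2.55% lower over all genes. For NOTCH and hedgehog genes, 3 of 29 in each direction (10.3% each), the ligands *JAG1* (1.31) and *DLL1* (1.51) and the target *HES1* (1.59) were higher. The receptor *NOTCH2* (-1.19), the hedgehog effector *GLI2* (-1.12) and the hedgehog-binding *HHIP* (-2.07) were lower. *STC1* and *PAPPA* (-2.69), a protease of IGF-binding proteins that stanniocalcin inhibits, were both lower, while the binding proteins *IGFBP3* (0.19) and *IGFBP7* (0.75) were not called.

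**Figure D5:**
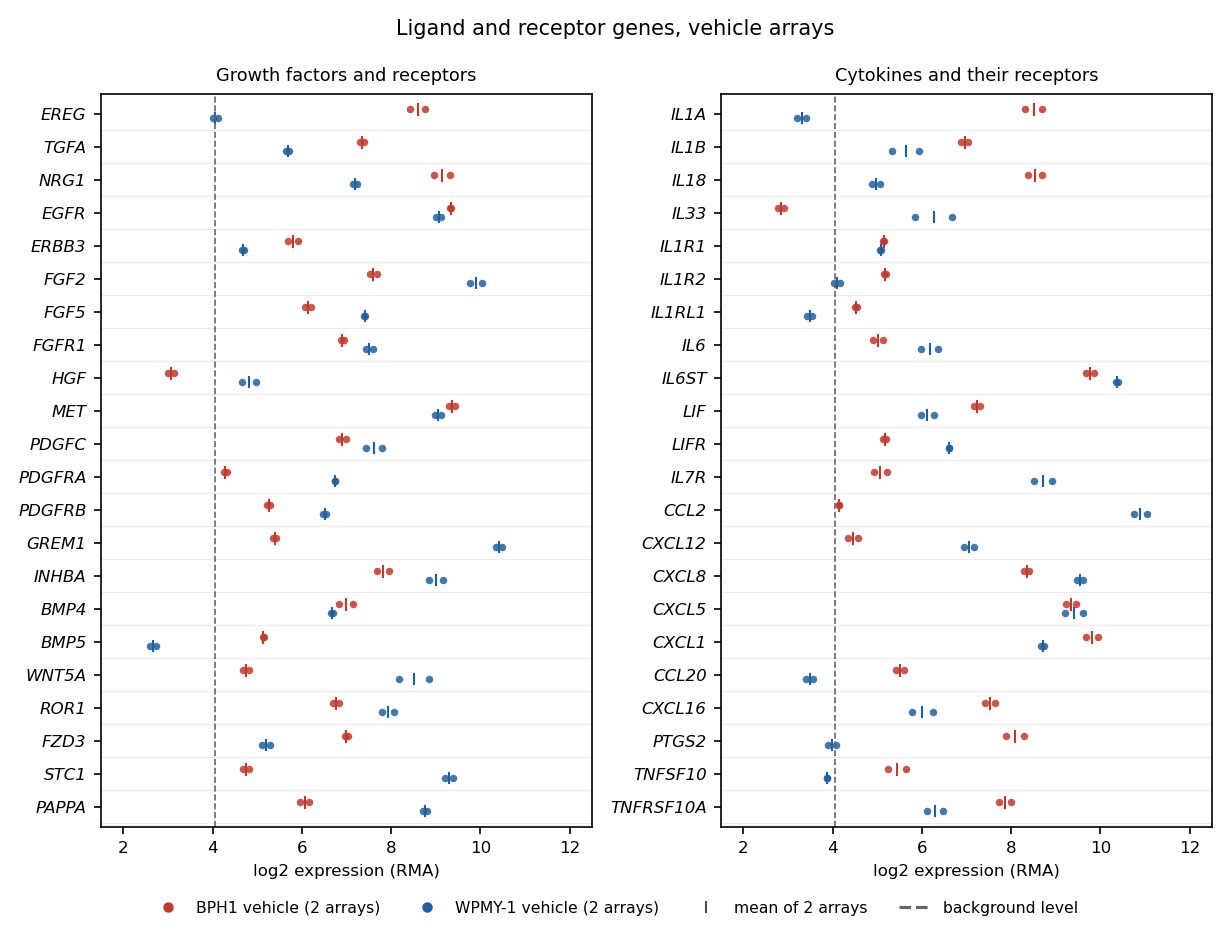
Log2 expression on each vehicle array for growth factors and receptors (left) and for cytokines and their receptors (right), with BPH1 in red above WPMY-1 in blue. Points are single arrays, short bars are means of 2 arrays and the dashed line is the background level. *EREG*, *IL1A* and *PTGS2* lie to the right in BPH1, *GREM1*, *WNT5A*, *IL7R* and *CCL2* to the left, and *EGFR* and *CXCL5* do not separate by 2-fold.

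Cytokine genes of the IL-1 family divided between the lines. *IL1A*, an alarmin stored in epithelial cells, read 8.31 and 8.69 on the BPH1 arrays, against 3.21 and 3.40 on the WPMY-1 arrays, and *IL18* 8.68 and 8.37 on the BPH1 arrays, against 5.07 and 4.89 on the WPMY-1 arrays. *IL1B* was higher by less (1.32), with the decoy receptor *IL1R2* (1.08) and the IL-33 receptor *IL1RL1* (1.03). *IL33*, the family member of stromal and barrier cells, was lower at 2.77 and 2.91 on the BPH1 arrays, against 6.68 and 5.84 on the WPMY-1 arrays. The receptor *IL1R1* had means of 5.14 in BPH1 and 5.07 in WPMY-1 cells. Over 56 interleukin and receptor genes 6 were higher (10.7%, against 2.99% of all genes) and 4 lower (7.14%, against 2.55%). *IL7R* read 5.21 and 4.92 on the BPH1 arrays, against 8.91 and 8.51 on the WPMY-1 arrays. In the IL-6 family, *IL6* (-1.15) and the receptor *LIFR* (-1.45) were lower and the ligand *LIF* (1.11) higher, while the shared receptor *IL6ST* (-0.60) and *OSMR* (-0.27) were not called.

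Chemokine genes were called in 7 of 47 cases, 4 higher (8.51%, against 2.99% of all genes) and 3 lower (6.38%, against 2.55%). After *CCL2*, the largest was *CXCL12*, the stromal chemokine for CXCR4-bearing cells, at 4.35 and 4.57 on the BPH1 arrays, against 7.18 and 6.94 on the WPMY-1 arrays. Of the neutrophil chemokines *CXCL8* was lower (-1.21) and *CXCL1* higher (1.10), while *CXCL5* averaged 9.35 in BPH1 and 9.41 in WPMY-1 cells. *CCL20*, which recruits CCR6-bearing lymphocytes, read 5.59 and 5.41 on the BPH1 arrays, against 3.41 and 3.56 on the WPMY-1 arrays, and *CXCL16* (1.51) and *CCL28* (1.25), known from mucosal epithelium, were higher. Of the chemokines named here *CXCL1*, *CXCL5* and *CXCL8* had means above 8 in both lines.

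Of 38 genes of innate sensing, complement and prostaglandin synthesis 6 were higher (15.8%) and 3 lower (7.89%) in BPH1 cells. The shares of all genes were 2.99% and 2.55%. Cyclooxygenase-2, *PTGS2*, read 7.89 and 8.29 on the BPH1 arrays, against 4.07 and 3.90 on the WPMY-1 arrays. *PTGS1* (1.76) and the prostaglandin E synthase *PTGES* (1.84) were higher too. In the same list *C3* (1.24), *TLR2* (1.31) and *IFIH1* (1.13) were higher, and *LY96* (-1.80), the partner of TLR4, *C1S* (-1.06) and *C1R* (-1.04) were lower. Of 37 TNF and interferon genes 7 were higher (18.9%) and 2 lower (5.41%). *TNFRSF21* read 9.36 and 9.56 on the BPH1 arrays, against 6.96 and 7.24 on the WPMY-1 arrays. The death ligand *TNFSF10* (1.58) and its receptor *TNFRSF10A* (1.56), *CD40* (1.39), *CD70* (1.57), *TNF* (1.09) and *IFNGR1* (1.36) were higher. The decoy receptor *TNFRSF10D* (-1.30) and *EDA2R* (-2.80) were lower.

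Of the lists of core energy metabolism, that of glycolysis and glucose transport held calls and that of the respiratory chain did not. The calls fell on a transporter, on *PYGL* and *PGM1* and on regulators, not on the glycolytic enzymes *GAPDH* (0.03), *PKM* or *LDHA*. None of 55 respiratory chain subunits was called, and their median difference was -0.04. Of 35 genes of glycolysis and glucose transport 4 were higher (11.4%, against 2.99% of all genes) and 1 lower (2.86%, against 2.55%). The glucose transporter *SLC2A3* read 4.71 and 4.70 on the BPH1 arrays, against 7.26 and 7.53 on the WPMY-1 arrays, whereas *SLC2A1* (0.35), *PKM* (0.01) and *LDHA* (0.10) were not called. *PYGL*, which breaks down glycogen, was at 10.68 and 10.65 on the BPH1 arrays, against 8.67 and 8.82 on the WPMY-1 arrays. *PDK3* (1.92) and *PFKFB3* (1.69), regulators of pyruvate entry and of phosphofructokinase, and *PGM1* (1.02) were higher.

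Retinoid, steroid and xenobiotic metabolism held the most called metabolic genes, 12 of 70 higher (17.1%) and 5 lower (7.14%). *CYP24A1*, which inactivates vitamin D, read 8.91 and 8.75 on the BPH1 arrays, against 5.09 and 4.36 on the WPMY-1 arrays. *DHRS9*, a retinol dehydrogenase, was at 7.12 and 7.27 on the BPH1 arrays, against 3.32 and 3.46 on the WPMY-1 arrays. *HSD17B2*, which oxidises estradiol and testosterone, was at 6.404 and 7.18 on the BPH1 arrays, against 4.55 and 4.71 on the WPMY-1 arrays. All 3 enzymes act on ligands of nuclear receptors. *GPX2* (2.93), a glutathione peroxidase of epithelium, *CYP2S1* (2.16), *MAOA* (2.09) and the aldo-keto reductases *AKR1C1* (1.205) and *AKR1C2* (1.52) were higher, the reductases with the proviso that they are near-identical. *ALDH1L2*, a folate enzyme that the list also held, was lower at 3.88 and 3.99 on the BPH1 arrays, against 7.58 and 7.15 on the WPMY-1 arrays. *GSTM3* (-2.13), *CYP1B1* (-1.72), *NNMT* (-1.63) and *GPX8* (-1.39) were lower too. *CYP1B1* lost its call without BPH1 array 1 (-1.21) or WPMY-1 array 2 (-1.29), with limma adjusted p = 0.097 in both cases. In lipid metabolism 7 of 48 genes were higher (14.6%, against 2.99% of all genes) and 4 lower (8.33%, against 2.55%). Both carnitine palmitoyltransferases of fatty acid oxidation, *CPT1A* (1.59) and *CPT2* (1.42), were higher. The lipid droplet gene *PLIN2* read 5.68 and 5.53 on the BPH1 arrays, against 7.42 and 7.83 on the WPMY-1 arrays, and *ACSL4* (-1.37) and *SQLE* (-1.06) were lower. Among 49 amino acid genes 5 were higher (10.2%) and 3 lower (6.12%), against 2.99% and 2.55% of all genes. The transporter *SLC6A15* read 3.27 and 3.36 on the BPH1 arrays, against 7.40 and 7.21 on the WPMY-1 arrays. The leucine transporters *SLC7A5* (1.64) and *SLC7A8* (2.10), the polyamine acetyltransferase *SAT1* (1.71) and *KYNU* (1.99) of tryptophan breakdown were higher. The branched-chain transaminase *BCAT1* (-1.22) was lower.

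The same contrast was then read on the 4 arrays of Pao extract, which shared no array with the vehicle contrast but had the same lines and media, and which shared the fit's estimate of the spread. There 703 genes (3.13%) were higher and 526 (2.34%) lower in BPH1 cells. Of the vehicle calls, 597 higher genes (88.8%) and 467 lower genes (81.6%) were called again, which are 84.9% and 88.8% of the Pao extract calls. Of the 1244 genes called on the vehicle arrays 1242 had the same sign, and 0 were called in opposite directions. *SERPINB5* differed by 6.06 and *CCL2* by -6.19 there. No gene's line difference changed with the extract at an adjusted p below 0.05 in limma, while 1602 did so at an unadjusted p below 0.05. Of the 259 called genes named in the text 20 were not called again, 19 of them with the same sign. Among them were *ZEB1* (-0.66), *KRT14* (0.70), *INHBA* (-0.66), *OCLN* (0.74) and *LIF* (0.85).

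With 2 arrays on each side, exact permutation reaches no p below 0.333, so the calls rest on the spread that limma shares between genes. The methods' t-test on single genes kept 9 higher and 9 lower genes after adjustment. Leaving out single arrays ended a few further calls of genes named above, all with differences close to 2-fold. Without BPH1 array 1 these were *C1R* (-0.92), *CXCL1* (0.96) and *FZD6* (0.96), and without BPH1 array 2 *FOXL1* (0.94), *KREMEN1* (0.93) and *SQLE* (-0.87). Without WPMY-1 array 1 they were *BCAT1* (-0.97), *FOXL1* (0.94), *IL1RL1* (0.97), *IL6* (-0.96), *ITGA1* (-0.996), *LIF* (0.96), *OCLN* (0.98) and *PGM1* (0.86). Without WPMY-1 array 2 they were *C1R* (-0.93), *C1S* (-0.98), *COL6A1* (-0.97), *FZD6* (0.93), *LOXL3* (-0.94) and *SQLE* (-0.99). Other genes gained a call, namely *MIR221* without BPH1 array 1 (-1.11) or WPMY-1 array 2 (-1.09), *COL5A1* without BPH1 array 2, *TFAP2A* without WPMY-1 array 1 (1.02) and *PLOD2* without WPMY-1 array 2 (-1.05).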

How the data were processed

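RNA of BPH1 and WPMY-1 cells was hybridized to 8 Affymetrix human transcriptome arrays, 2 per line and treatment, and the arrays were grouped by the labels. The authors deposited log2 values after RMA (no version is given in the sources used here), with 67528 probe sets on each array. RMA corrects the background and brings all arrays to a common distribution, which can compress differences at dim probe sets. The deposited log2 values were used as they are, and the number of arrays limits the precision. The labels and a figure legend of the study give 48 h of treatment, whereas its methods give 24 h.

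Gene names came from the annotation of the platform. Of the probe sets, 23781 carry 1 symbol, 1543 several and 42204 are not listed. By gene ID, 21497 of the named ones match RefSeq on GRCh38.p14. Where a gene had more than 1 probe set (479 genes), the brightest on average stood for it. Group means were estimated in limma 3.58.1 (R 4.3.3) from the 8 arrays together, which leaves 4 residual degrees of freedom, and variances were moderated by empirical Bayes. Benjamini-Hochberg adjustment of the two-sided p-values covered 22465 genes. Members and gene lists were chosen with earlier results of these data known. Named were the 12 largest called differences per direction without overlap between the lines, all epithelial and stromal markers, up to 8 called members per direction of each list with its defining members, and further members with their values. Levels of 41 sex-linked genes are not reported. RefSeq mature sequences were found for 22 of 23 microRNA genes, and promoters for those markers that the table holds.

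The script was tested on simulated data. Alternatives concerned the variance model, a second quantile normalization, median centring, removal of dim genes, the probe set that stands for a gene, a fit to the 4 arrays of a contrast, the replicate number as a block, the methods' t-test, the size threshold and the omission of each array in turn.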

Additional observations from a re-analysis of the deposited data

How the results depend on the processing

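Over 10 alternatives of fit, variance model, normalization, filter, probe set and block, 621 to 672 genes were higher and 537 to 633 lower in BPH1 cells, against 672 and 572 as reported. Leaving out single arrays gave 672 to 687 higher and 558 to 615 lower genes on the vehicle arrays, and 693 to 732 higher and 522 to 548 lower genes on the Pao extract arrays. The threshold mattered more. Without a minimum size 3495 were higher and 3442 lower on the vehicle arrays, and 3349 and 3573 on the Pao extract arrays. At 1.4-fold the counts were 1894 and 1835 on the vehicle arrays, and 2010 and 1687 on the Pao extract arrays. At 4-fold they were 170 and 166 on the vehicle arrays, and 183 and 131 on the Pao extract arrays. The methods' t-test with Benjamini-Hochberg adjustment and the 2-fold minimum called 9 higher and 9 lower on the vehicle arrays, and 18 and 6 on the Pao extract arrays. At an unadjusted p below 0.05, with no minimum size, that test called 3006 and 2775 on the vehicle arrays. With it, 254 of the 259 called genes named in the text lost their call, while all kept their direction.

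The replicate number was used as a block in both an additive and a random form. The additive block gave 672 higher and 573 lower genes, and the random one within each line 672 and 572. Deviations of arrays with the same number correlated at 0.34 between the vehicle groups, 0.20 between the Pao extract groups, and 0.50 in BPH1 and 0.43 in WPMY-1 between extract and vehicle, and the random block's estimated correlation was 0.55. No source says what a number marks, and 2 pairs cannot settle whether the numbers pair the arrays. The random block ended the call of *MIR222* (limma adjusted p = 0.052) and of no other gene named in the text.

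No called gene named in the text changed direction under any alternative. Genes that were not called changed sign around 0. With further quantile normalization these were *DES* (-0.0402), *IL1R1* (-0.0029), *KLK3* (-0.0544), *MYH11* (-0.0665) and *PKM* (-0.0579). With centred arrays they were *DES* (-0.0316), *GAPDH* (-0.0217), *ITGAV* (-0.0387), *KLK3* (-0.0255), *MYH11* (-0.0361) and *PKM* (-0.0396). Without single arrays *CXCL5* ranged from -0.26 to 0.14, *DES* from -0.0189 to 0.0553, *FGF7* from -0.29 to 0.0441 and *ITGAV* from -0.0214 to 0.0436. *KLK3* ranged from -0.0371 to 0.0857, *MSMB* from -0.0802 to 0.0120, *MYH11* from -0.0261 to 0.0536 and *PKM* from -0.0217 to 0.0420. Centring also ended the calls of *FZD6* (0.96), *IL1RL1* (0.98), *MCM6* (0.98), *OCLN* (0.99) and *PGM1* (0.97), and quantile normalization that of *MIR146A* (0.99). With the mean of its probe sets *DCN* lost its call (-0.80).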

Other observations

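The patterns below were chosen after the values had been seen. Protein-coding genes of chromosome 14 were shifted toward BPH1 cells. Here and on the other autosomes, only genes whose mean reached the background level in at least 1 line were counted. The shares thus have another base than those over all genes. On chromosome 14 the median difference was 0.38 over 460 genes, 83.3% of them above 0, and 63 (13.7%) were higher and 4 (0.87%) lower. Medians of the other 21 autosomes lay between -0.15 and 0.15, with 3.97% of their genes higher and 3.53% lower. On the Pao extract arrays the median of chromosome 14 was 0.35. When its genes were taken in 10 successive blocks of 46 along the chromosome, the medians were 0.26, 0.13, 0.69, 0.63, 0.73, 0.52, 0.44, 0.64, 0.11 and -0.08. The higher medians thus lay in the middle of the gene order, from block 3 to block 8.

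Noncoding genes of the imprinted region on the same chromosome went the other way. *MEG3*, a long noncoding RNA, read 6.22 and 6.22 on the BPH1 arrays, against 8.40 and 7.78 on the WPMY-1 arrays, a difference of -1.86. Of the small nucleolar RNA genes near it, 6 of 9 of the SNORD113 family and 25 of 31 of the SNORD114 family were lower in BPH1 cells, with medians of -1.74 and -1.68. The lowest was *SNORD114-20*, with a difference of -4.01. On the Pao extract arrays 5 and 23 of them were lower. None of 31 SNORD115 and 19 SNORD116 genes, from the imprinted region on chromosome 15, was called in limma, but all 31 SNORD115 and 8 of 19 SNORD116 genes had means below the background level in both lines, where no difference could be read. Members of these families are near-identical, so single members are uncertain.

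Some probe sets without a gene name also differed, in both directions in a smaller share than those with 1 symbol. Of 42204 probe sets that are not in the annotation used here, 690 were higher and 504 lower in BPH1 cells, and of 1543 with several symbols 54 were higher and 21 lower. Of 23781 with 1 symbol, 705 were higher and 575 lower.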
